A study of Homo sapiens with 8 samples.

Results

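The regions described here carry the name of a keratin gene (KRT followed by a digit) or a keratin-associated protein gene (KRTAP) in the gene name column that the authors wrote beside each region. They were taken from chromosomes 12 and 17 and the other autosomes except chromosome 21, and were split by RNA oligo and by captured or control list. There were 672 such regions of 327994 in the 6 deposited lists, or of 323470 on the autosomes without chromosome 21. They carried 182 keratin names, and each name matched a gene of the RefSeq table: 81 protein-coding genes and 101 pseudogenes or noncoding genes. Of the noncoding names, 76 were pseudogenes of KRT8 or KRT18.

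The series asked which genomic loci an RNA can hold in an RNA-DNA triplex, using 3 biotinylated RNA oligos and a control without oligo. MEG3 TFR1 and MEG3 TFR2 are named after MEG3, a maternally expressed long noncoding RNA, and GATA6-AS TFR1 after the antisense RNA of GATA6. Each of the 4 groups (those 3 oligos and no oligo) had 2 libraries, from independent experiments per the labels. Every group used isolated, RNA-free genomic DNA of the human embryonic stem cell line H1, sheared to about 200 to 300 bp. Between 6 and 7 µg of DNA and 20 pmol of oligo were kept together at 37 °C for 1 h, with KCl at 50 mM and MgCl2 at 5 mM, and RNA-bound DNA was collected on streptavidin beads and released with RNases. The DNA came from a single cell line and was no longer in the cell, so the values describe recovery in the tube. The deposited lists give 1 log2 ratio per region, above 0 for captured regions (more DNA with the oligo) and below 0 for control regions (more DNA without it). They hold no value per library, so depth and how far libraries of the same group differ are unknown, and no test between groups was possible. The 3 comparisons share the no-oligo libraries, and their values are given side by side, in the order MEG3 TFR1, MEG3 TFR2, then GATA6-AS TFR1 where no oligo is named.

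Keratins are the intermediate filament proteins of epithelial cells, and each filament is built from pairs of an acidic type I and a basic type II keratin. The human type I genes lie together on chromosome 17, apart from KRT18, and the type II genes on chromosome 12. Simple epithelia use the type II keratins KRT8 and KRT7 with the type I keratins KRT18 and KRT19, the basal epidermis KRT5 with KRT14, and the upper epidermis KRT1 with KRT10. Hair keratins are embedded in a matrix of cysteine-rich keratin-associated proteins, encoded by small genes in dense clusters. An RNA strand can lie in the major groove of double-stranded DNA where one DNA strand runs mostly in purines, which is why uninterrupted purine or pyrimidine runs are marked in the sequences.

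A captured region lay over the 250 bases before the start of 5 keratin or keratin-associated genes, and these sequences are printed because they are the promoter windows that the lists reach. They are RefSeq sequences of GRCh38.p14, 5′ to 3′ in the direction of the gene, and all 5 genes lie on the minus strand. Capitals mark the longest run of purines only or pyrimidines only. The windows are chr12:52834312-52834561 for KRT79, chr17:40822615-40822864 for KRT10, chr12:52434372-52434621 for KRT75, chr17:41009129-41009378 for KRTAP3-1 and chr17:41382307-41382556 for KRT34.
KRT79: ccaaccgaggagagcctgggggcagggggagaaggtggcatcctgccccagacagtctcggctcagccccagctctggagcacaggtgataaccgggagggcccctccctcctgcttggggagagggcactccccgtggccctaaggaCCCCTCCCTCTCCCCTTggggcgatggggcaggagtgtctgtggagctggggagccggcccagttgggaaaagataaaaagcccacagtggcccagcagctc
KRT10: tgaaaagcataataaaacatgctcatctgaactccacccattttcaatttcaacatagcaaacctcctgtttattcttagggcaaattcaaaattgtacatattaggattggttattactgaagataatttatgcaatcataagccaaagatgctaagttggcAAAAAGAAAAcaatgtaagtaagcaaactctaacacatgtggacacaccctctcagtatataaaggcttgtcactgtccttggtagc
KRT75: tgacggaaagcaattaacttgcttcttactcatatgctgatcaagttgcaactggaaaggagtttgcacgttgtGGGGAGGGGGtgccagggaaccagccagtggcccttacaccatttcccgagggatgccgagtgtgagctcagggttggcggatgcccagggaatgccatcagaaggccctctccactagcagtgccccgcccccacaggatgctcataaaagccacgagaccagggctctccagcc
KRTAP3-1: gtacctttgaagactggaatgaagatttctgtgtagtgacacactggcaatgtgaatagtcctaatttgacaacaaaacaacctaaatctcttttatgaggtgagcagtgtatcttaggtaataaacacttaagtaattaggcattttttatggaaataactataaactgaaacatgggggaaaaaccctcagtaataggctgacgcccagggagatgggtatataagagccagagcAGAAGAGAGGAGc
KRT34: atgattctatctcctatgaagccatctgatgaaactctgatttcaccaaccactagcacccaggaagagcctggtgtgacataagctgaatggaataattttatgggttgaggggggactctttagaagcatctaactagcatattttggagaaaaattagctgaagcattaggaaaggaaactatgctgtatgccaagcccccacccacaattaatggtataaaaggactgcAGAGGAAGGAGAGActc

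KRT79 encodes a type II epithelial keratin, and its window held the longest run of the 5, 17 pyrimidines, ending 86 bases before the start. A MEG3 TFR1 region of log2 ratio 1.76 covered all 250 bases, and a MEG3 TFR2 region of 1.66 covered 211 of them. KRT10, the type I keratin of the upper epidermis, had a MEG3 TFR2 region of 1.93 over 236 bases of its window, which is the most AT-rich of the 5 (34.8% GC) and has a longest run of 10 purines. The other 3 windows were reached by GATA6-AS TFR1. Its regions had log2 ratios of 1.09 at KRT75, a keratin of the hair follicle's companion layer, 1.94 at KRTAP3-1, a high-sulfur hair matrix protein, and 1.24 at KRT34, a type I hair keratin. The runs at KRTAP3-1 (12 purines) and KRT34 (14 purines) end 2 and 4 bases before the start. The KRT75 region carries no keratin name in the lists, and the RefSeq gene table extends KRT34 past its printed window.

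The table held 73 promoter windows of keratin and keratin-associated genes on the autosomes without chromosome 21. Of these, 1 was overlapped by a MEG3 TFR1 captured region, 2 by MEG3 TFR2 and 3 by GATA6-AS TFR1. Over all 20898 windows of protein-coding genes the shares were 6.53%, 3.01% and 16.5%, against 1.37%, 2.74% and 4.11% of the keratin windows. The windows are not the same set as the genes counted below. Those autosomes have 100 keratin-family genes and 18883 protein-coding genes, so the 20898 windows are a wider set. A run of at least 15 purines or pyrimidines occurred in 15.1% of the keratin windows and in 17.5% of all 35116 windows of the table, and the median longest run was 11 bases in both. The motif GAGAGA, searched on both strands, so that TCTCTC counts as well, was present in 20.5% of the keratin windows and 18.4% of all windows. It can lie within the purine runs, as it does in the KRT34 window. Median GC content was 42.4% over the keratin windows and 58.0% over all windows. The part of GC content in the overlaps was not tested.

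Keratin names appeared on 185 captured and 20 control regions for MEG3 TFR1, on 176 and 18 for MEG3 TFR2 and on 207 and 66 with GATA6-AS TFR1. The captured share was 90.2% for MEG3 TFR1 (95% Wilson interval 85.4% to 93.6%), against 87.9% of all its listed regions. For MEG3 TFR2 it was 90.7% (85.8% to 94.1%) against 87.3%, and for GATA6-AS TFR1 75.8% (70.4% to 80.5%) against 74.4%. The intervals cover the counting of regions alone, and each contains the share of all regions. With protein-coding names alone the interval was 89.6% to 98.3% for MEG3 TFR1 and 76.7% to 89.1% for GATA6-AS TFR1. Both lie above the share of all regions in their list. For MEG3 TFR2 the interval was 86.4% to 96.6%, which contains the share of all its regions. Regions with any protein-coding gene name were captured in 87.7%, 86.9% and 76.6% of cases, with MEG3 TFR2 second. Over all regions of chromosomes 12 and 17, 89.3%, 88.3% and 78.1% were captured. These values lie inside the intervals of MEG3 TFR2 and GATA6-AS TFR1 and just below that of MEG3 TFR1. Regions lying side by side are not independent, which the intervals leave out. GATA6-AS TFR1 had 3.14 captured keratin regions per control region, where the MEG3 oligos had 9.25 and 9.78. Over all listed regions the numbers were 2.91 for GATA6-AS TFR1 and 7.25 and 6.86 for the MEG3 oligos.

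**Figure D1:**
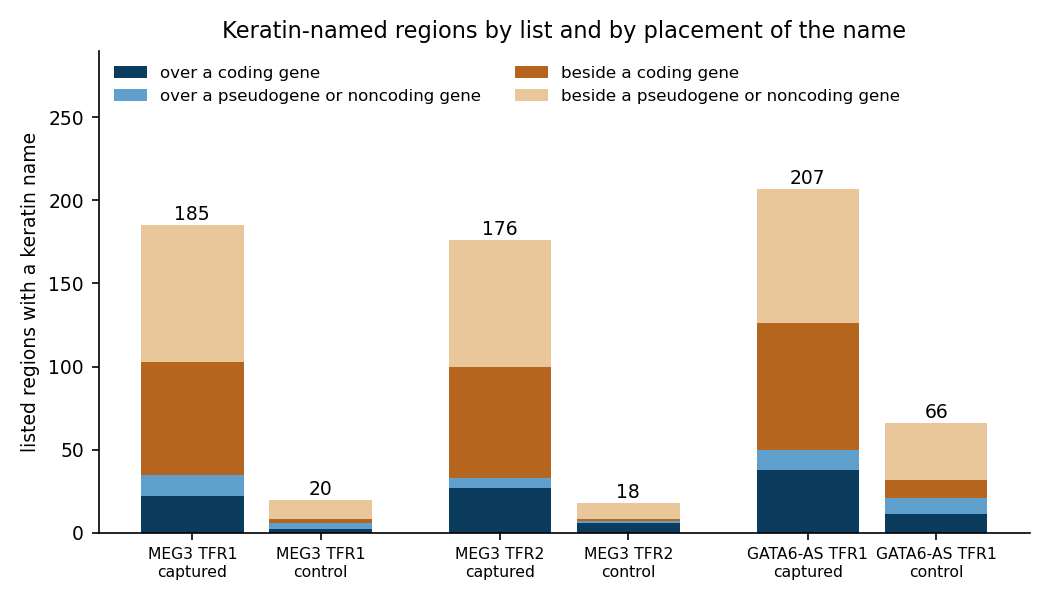
Keratin-named regions in each list. Bars give the number of regions (vertical axis, from 0) for each oligo and direction, with the count above the bar: captured bars stand at 185, 176 and 207, and control bars at 20, 18 and 66.

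Captured keratin regions had ratios much like those of the lists they came from. The median log2 ratio was 1.34 for MEG3 TFR1 (1.41 over all captured regions), 1.46 for MEG3 TFR2 (1.44) and 1.38 with GATA6-AS TFR1 (1.34). As folds, these keratin medians are 2.53, 2.76 and 2.61. The values ran from 0.68 to 4.01, from 0.82 to 3.43 and from 0.65 to 3.40, in that order of oligos. In the control lists the keratin medians were -1.36, -1.55 and -1.58, beside -1.53, -1.47 and -1.57 over all control regions. The captured keratin regions had median widths of 400, 350 and 350 bp (350, 350 and 400 bp over all captured regions) and covered 79.4 kb, 66.4 kb and 99.3 kb in all.

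Chromosome 12, home of the type II genes, held 61, 72 and 85 of the captured keratin regions for the 3 oligos in the same order. Chromosome 17, with the type I genes, held 41, 33 and 50, and chromosome 11, with the KRTAP5 genes, 20, 19 and 20. The remaining 63, 52 and 52 were spread over other autosomes, where KRT8 and KRT18 pseudogenes are found.

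A keratin name often stood for a gene some distance away. Names without a mark overlapped the RefSeq gene in 121 of 161 cases. In 433 of 436 cases a name marked (+) belonged to a gene at higher coordinates, and in 117 of 119 cases a name marked (-) to one at lower coordinates. By these marks 35 captured regions for MEG3 TFR1 (18.9%) lay over a keratin gene, 33 for MEG3 TFR2 and 50 with GATA6-AS TFR1 (24.2%). Of all captured regions, 50.1%, 51.0% and 55.5% lay over a gene by the same marks. The side-marked regions had median distances of 34.8 kb, 36.1 kb and 42.2 kb to the named gene, up to 122 kb.

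Some of the side-marked captured regions overlapped a protein-coding keratin or keratin-associated gene, which could be the named gene or another. They were 22 of 150 for MEG3 TFR1, 18 of 143 for MEG3 TFR2 and 22 of 157 with GATA6-AS TFR1. KRT80 shows this. The 3.43 region of MEG3 TFR2 at chr12:52171651-52171850 is named KRT86(+) although it lies within KRT80, 103 kb from KRT86. Conversely, 16, 7 and 21 captured regions overlapped a protein-coding keratin or keratin-associated gene without carrying any keratin name. In all, 56, 47 and 73 captured regions overlapped such a gene by position, against 2, 5 and 10 control regions. The gene-level values below therefore use positions, not names.

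RefSeq lists 100 protein-coding genes under the rule's names on these autosomes, 55 keratins and 45 keratin-associated protein genes. A captured region lay within 1 kb of either gene end for 25 of them with MEG3 TFR1, 21 with MEG3 TFR2 and 28 with GATA6-AS TFR1. Over all 18883 protein-coding genes the shares were 29.6%, 23.4% and 49.1%. The gene groups differed in their shares. Of the 29 epithelial keratins, 37.9%, 44.8% and 65.5% had such a region for the 3 oligos in the same order. Of the 26 hair and inner root sheath keratins, with KRT75 counted among them, 34.6%, 23.1% and 23.1% had one. Of the 45 keratin-associated protein genes, 11.1%, 4.44% and 6.67% had one. These are counts of few genes that lie next to each other, given without a test.

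**Figure D2:**
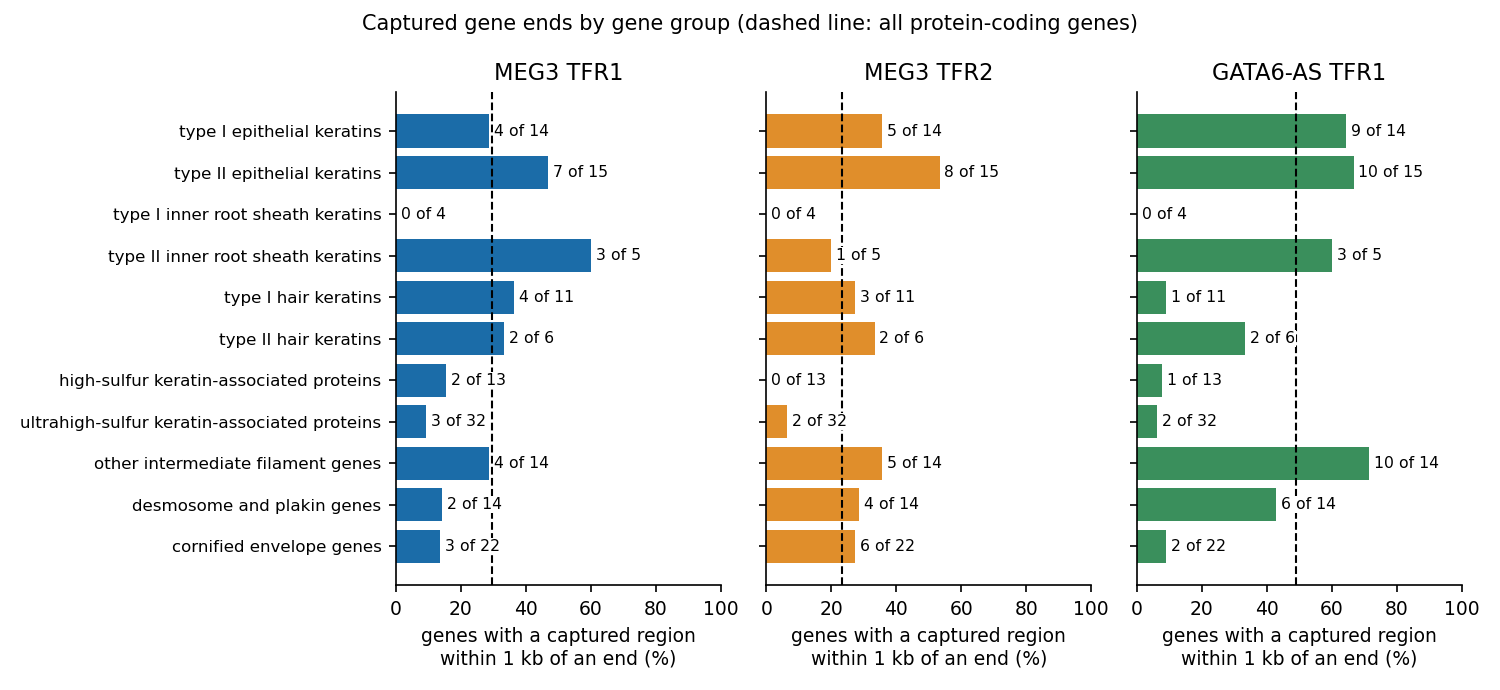
Share of genes in each group with a captured region within 1 kb of either gene end (horizontal axis, percent), 1 panel per oligo, with the count beside each bar. The dashed line is the share of all protein-coding genes (29.6%, 23.4% and 49.1%); both epithelial keratin groups lie above it for MEG3 TFR2 and GATA6-AS TFR1, and both keratin-associated groups below it for every oligo.

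Among the epithelial genes, the type II group of 15 had 7, 8 and 10 genes with a captured end for the 3 oligos in the same order, and the type I group of 14 had 4, 5 and 9. The type I hair keratins ran the other way across the oligos, with 4, 3 and 1 of 11. None of the 4 type I inner root sheath keratins, KRT25 to KRT28, had a captured end with any oligo. The 5 genes grouped as type II inner root sheath keratins had 3, 1 and 3. This group includes KRT75 of the companion layer, which had a captured end with MEG3 TFR1 and GATA6-AS TFR1. Control regions at gene ends were few: 1, 2 and 5 of the 100 genes, beside 2.45%, 2.34% and 6.2% of all protein-coding genes.

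When the gene body was added to its ends, 36, 29 and 36 of the 100 genes had a captured region, beside 66.2%, 62.7% and 74.1% of all protein-coding genes. Keratin-family genes are short. Their median length was 4247 bp, and 991 bp for the keratin-associated genes alone, against 24549 bp for all protein-coding genes, and the part of gene length in these counts was not tested. A captured region of at least 1 oligo was present at 50 of the 100 genes, beside 85.4% of all protein-coding genes. The 50 without one were 37 keratin-associated genes and 13 keratins, which were KRT1, KRT6A, KRT12, KRT20, KRT25 to KRT28, KRT33B, KRT37, KRT39, KRT40 and KRT222.

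Genes of related structures gave a mixed picture at their ends. Other intermediate filament genes, such as vimentin and the lamins, had a captured end in 4, 5 and 10 of 14 for the 3 oligos in the same order. Desmosome and plakin genes, whose proteins anchor keratin filaments to cell junctions, had one in 2, 4 and 6 of 14. Genes of the cornified envelope, the protein shell of dead epidermal cells, had one in 3, 6 and 2 of 22.

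The type II cluster was dense in captured regions with every oligo. Between KRT80 and KRT18 (chr12:52168996-52952906, hg38) there were 80 captured regions for MEG3 TFR1, 92 for MEG3 TFR2 and 109 with GATA6-AS TFR1. That is 102, 117 and 139 per Mb, where chromosome 12 as a whole had 34.8, 28.8 and 38.3. Control regions in the cluster numbered 3, 8 and 18, or 3.83, 10.2 and 22.96 per Mb beside 4.78, 4.29 and 14.8 for the chromosome. The control density thus also stood above that of the chromosome for MEG3 TFR2 and GATA6-AS TFR1, and below it for MEG3 TFR1.

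The type I cluster on chromosome 17 (chr17:40654665-41624575) was not dense as a whole. It held 45, 36 and 49 captured regions, or 46.4, 37.1 and 50.5 per Mb, below the 64.6, 51.5 and 88.9 of chromosome 17. Its parts differed. The stretch from KRT33A to KRT17, with hair keratins and the epithelial keratins KRT9, KRT13 to KRT17 and KRT19, had 111, 75.4 and 129 captured regions per Mb. The stretch from KRT222 to KRT40 had 12.03, 18.05 and 9.02, and the block of keratin-associated genes from KRTAP3-3 to KRTAP17-1 had 15.5, 12.4 and 15.5. The last 2 stretches hold 3 to 6 captured regions per oligo, so their densities rest on few regions. Control regions were sparse in each part too. They had 3.59, 0 and 10.8 per Mb from KRT33A to KRT17, and 3.01, 3.01 and 9.02 from KRT222 to KRT40. The block of keratin-associated genes had 3.10, 0 and 9.31, where chromosome 17 had 6.83, 6.09 and 18.4. With GATA6-AS TFR1, KRT222 to KRT40 held 3 captured and 3 control regions.

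**Figure D3:**
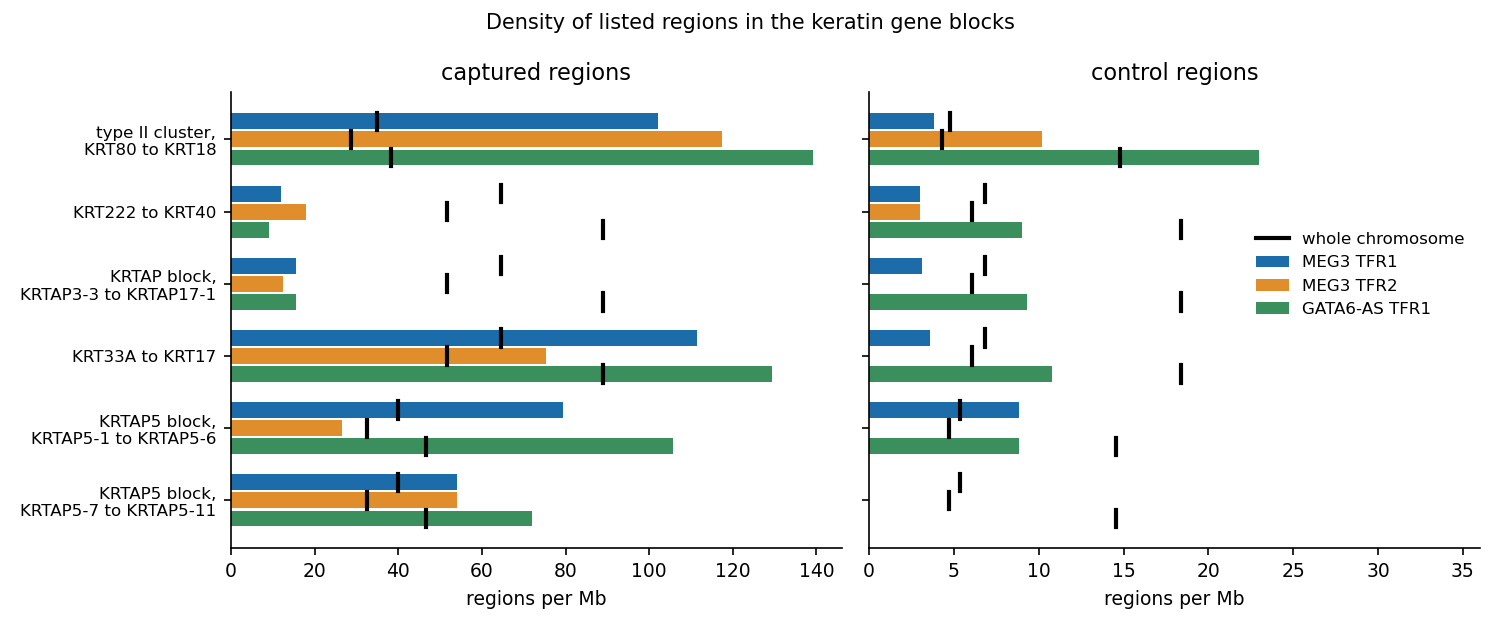
Listed regions per Mb (horizontal axes, from 0) in 6 blocks of keratin and keratin-associated genes, captured regions at left and control regions at right, by oligo; black ticks give the density of the whole chromosome. The captured bars of the type II cluster and of KRT33A to KRT17 pass their ticks for each oligo, while KRT222 to KRT40 and the neighbouring KRTAP block fall short of theirs.

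KRT8, the type II keratin of simple epithelia, had the most captured regions of any keratin gene with every oligo. Regions of single genes, here and below, were counted over the gene and 1 kb to each side. At KRT8 there were 8 for MEG3 TFR1, with log2 ratios of 0.68 at the lowest, 1.38 at the median and 3.15 at the highest. MEG3 TFR2 had 11, at 0.94, 1.52 and 1.96, and GATA6-AS TFR1 had 12, at 0.81, 1.39 and 2.01. The 3.15 region, chr12:52917701-52918050, lies inside the gene and corresponds to 8.88-fold more DNA with MEG3 TFR1 than without oligo. MEG3 TFR2 also had 2 control regions at KRT8, of -1.55 and -1.13, and GATA6-AS TFR1 had 2, of -1.34 and -1.25, while MEG3 TFR1 had none. RefSeq gives KRT8 a span of 52670 bp, the longest of the keratin genes named here. It overlaps KRT18 at its upper end, so 1 to 2 captured regions count for both. The -1.13 and -1.25 control regions also count for both, since they lie within KRT18 and reach only the 1 kb beside KRT8.

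KRT18, the type I partner of KRT8, lies at the upper edge of the same cluster and had 2 captured regions with each oligo. They were 1.05 and 1.55 for MEG3 TFR1, 1.07 and 0.90 for MEG3 TFR2, and 1.14 and 1.22 for GATA6-AS TFR1. A control region of -1.13 for MEG3 TFR2 and one of -1.25 for GATA6-AS TFR1 lay at overlapping places within KRT18. KRT7, another simple-epithelium keratin, had 2, 4 and 7 captured regions with highest values of 2.07, 1.98 and 2.02, and no control region.

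KRT80, a broadly expressed epithelial keratin at the lower edge of the cluster, had 7, 6 and 6 captured regions and no control region. Their highest values were 2.14 for MEG3 TFR1, 3.43 for MEG3 TFR2 and 2.03 with GATA6-AS TFR1. The 3.43 region is 10.8-fold higher with the oligo and was the highest keratin-named value of the MEG3 TFR2 list. KRT79 and its neighbour KRT78 had captured regions with each oligo, 4, 3 and 3 at KRT79 and 5, 1 and 4 at KRT78. Inside KRT78 MEG3 TFR2 also had a control region of -1.85, beside its single captured region of 1.44. KRT78 was also among the names, with KRT8, KRT18 and KRTAP9-9, that stood unmarked on a captured region in all 3 lists.

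KRT1, the type II keratin of the upper epidermis, had none with any oligo, and control regions with each: -1.85 for MEG3 TFR1, -1.34 for MEG3 TFR2, and -1.49, -1.68 and -1.79 with GATA6-AS TFR1. The MEG3 TFR2 control region and one of the GATA6-AS TFR1 regions span the same bases, chr12:52679551-52679850, and all of these are set against the same no-oligo libraries. KRT5, the type II keratin of basal epidermis, had 1 captured region, of 1.04 with GATA6-AS TFR1. KRT6A, which wounding induces, had none, while its near-copies KRT6B and KRT6C had single MEG3 TFR2 regions of 1.23 and 1.45, and KRT6C a GATA6-AS TFR1 region of 1.16.

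Among the type II hair keratins, KRT86 stood out for GATA6-AS TFR1 with 5 captured regions, of 1.12, 1.52, 1.75, 2.61 and 1.97. The MEG3 oligos had 3 regions there (1.22, 1.40 and 1.89) and 4 regions (1.25, 1.304, 1.57 and 2.26). KRT81 lies within the RefSeq span of KRT86, so its 2, 1 and 1 captured regions are among those of KRT86. KRT82 had a MEG3 TFR1 region of 2.98 that the authors named after the pseudogene KRT90P, and a second one of 2.21. A MEG3 TFR1 control region of -1.50 lies less than 100 bp from the 2.21 region. A GATA6-AS TFR1 control region of -1.22 overlaps that control region and not the 2.21 region. The other oligos had captured regions at KRT82 too, 1 of 1.41 with MEG3 TFR2 and 3 from 1.38 to 1.63 with GATA6-AS TFR1.

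**Figure D4:**
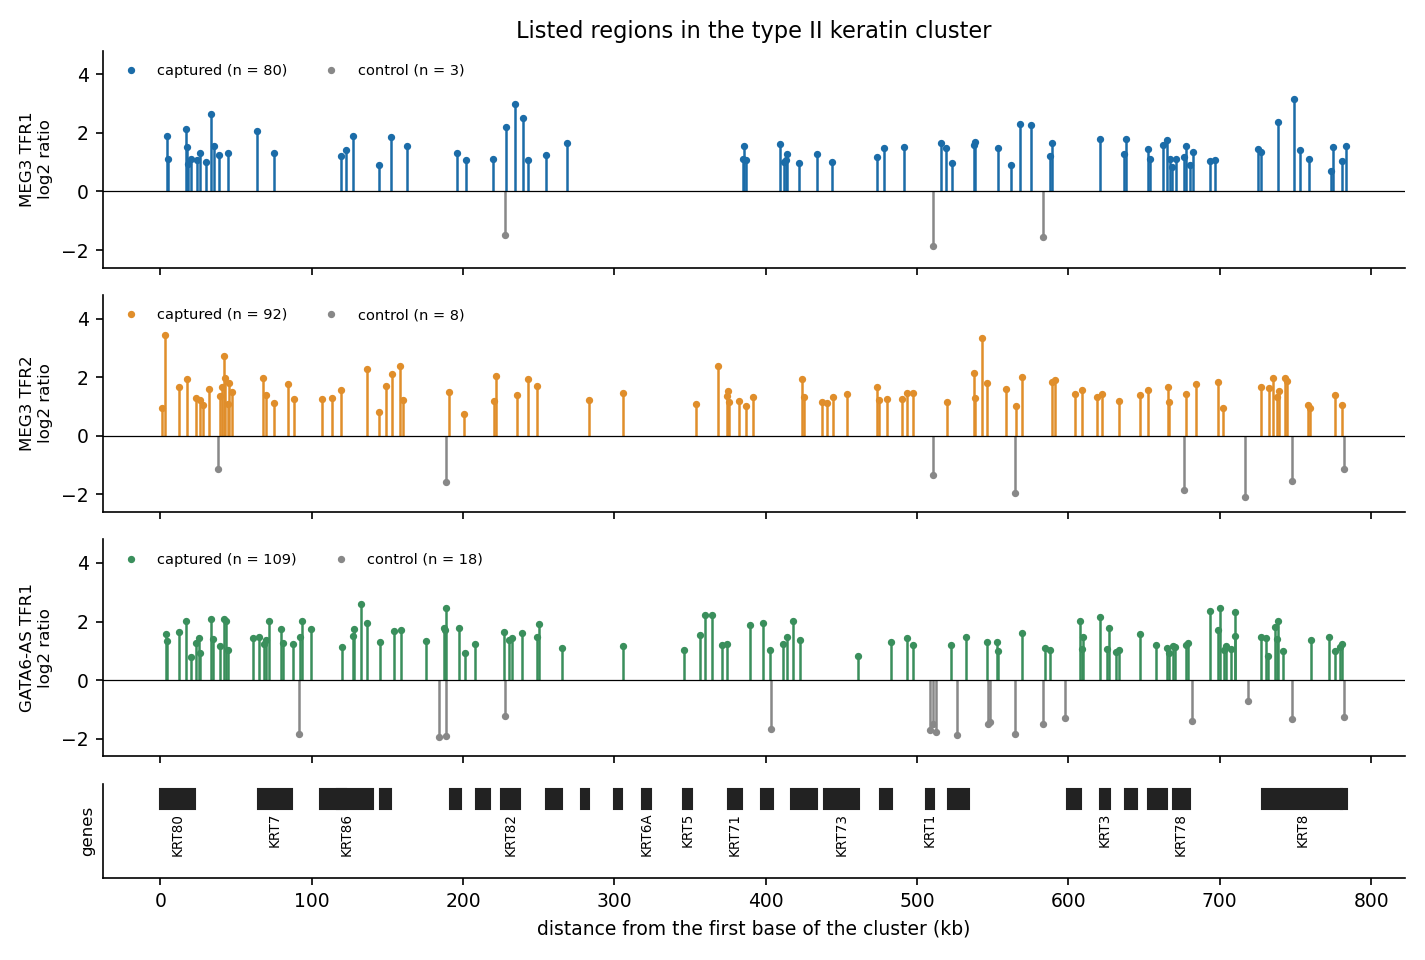
Listed regions of the type II cluster, 1 panel per oligo. Each stem is a region at its distance from the first base of the cluster (horizontal axis, kb) with its log2 ratio (vertical axis), coloured above 0 for captured and grey below 0 for control; genes are drawn beneath. Captured stems (80, 92 and 109) run along most of the cluster and are sparse around KRT6A, with the highest at KRT8 for MEG3 TFR1 (3.15) and at KRT80 for MEG3 TFR2 (3.43).

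In the type I cluster the basal keratin KRT14 had captured regions with each oligo. They were 0.99 and 1.08 for MEG3 TFR1, 1.91 and 1.80 for MEG3 TFR2, and 1.82 with GATA6-AS TFR1. KRT17, a keratin of skin appendages and stressed epidermis, had none with MEG3 TFR1, 2 with MEG3 TFR2 (1.69 and 1.32) and 5 with GATA6-AS TFR1, from 1.00 to 1.54. KRT19 had 1, 0 and 4, with the GATA6-AS TFR1 values between 1.02 and 1.70. KRT16, a stress keratin like KRT6A, had 1, 0 and 2, at 1.303 for MEG3 TFR1 and at 1.02 and 1.84 for GATA6-AS TFR1. KRT10 had the single MEG3 TFR2 region at its promoter window.

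The hair keratins of this cluster had their highest values with the MEG3 oligos. KRT32 had a MEG3 TFR1 region of 2.79, MEG3 TFR2 regions of 1.37 and 2.03, and a GATA6-AS TFR1 region of 1.00. KRT35 had 3 MEG3 TFR1 regions, of 0.97, 1.66 and 1.54, and none with the other oligos. KRT31 had a single MEG3 TFR2 region of 0.93. KRT12, the keratin of the corneal epithelium, had control regions without any captured one: -1.27 with MEG3 TFR2 and -2.08 with GATA6-AS TFR1.

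**Figure D5:**
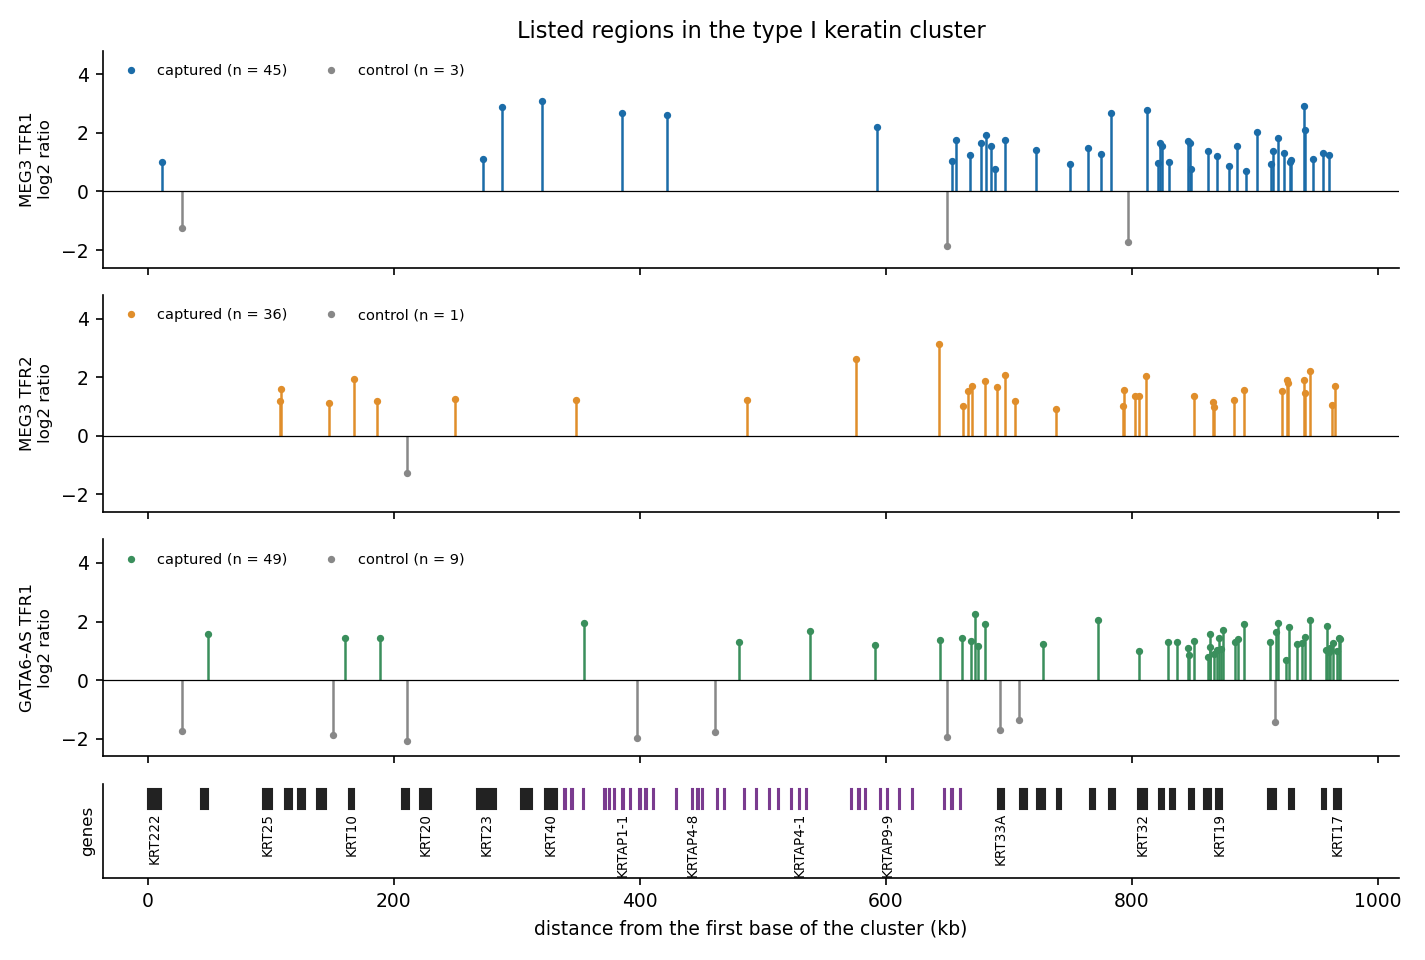
Listed regions of the type I cluster, drawn as for the type II cluster, with keratin genes in black and keratin-associated genes in purple beneath. Captured stems (45, 36 and 49) gather from KRT33A to KRT17, and few stand over the first 600 kb, where KRT222 to KRT40 and most keratin-associated genes lie.

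Keratin-associated protein genes seldom had a captured region over the gene or within 1 kb of it. Some of the regions listed next lie beside the gene, within that 1 kb. MEG3 TFR1 had 1 at each of 5 genes: KRTAP1-1 (2.68), KRTAP16-1 (1.02), KRTAP5-5 (1.21), KRTAP5-6 (1.51) and KRTAP5-8 (2.16). MEG3 TFR2 had 1 at KRTAP4-6 (1.22) and at KRTAP5-5 (0.94). GATA6-AS TFR1 had 1 at KRTAP3-1 (1.94), KRTAP5-1 (1.47) and KRTAP5-5 (1.09). KRTAP5-5, an ultrahigh-sulfur gene of chromosome 11, was thus the gene of this family with a captured region in each list. A control region reached the 1 kb beside KRTAP4-11 (-1.75, GATA6-AS TFR1).

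The KRTAP5 genes sit in a pair of blocks on chromosome 11. The block from KRTAP5-1 to KRTAP5-6 (chr11:1584342-1697755) held 9, 3 and 12 captured regions for the 3 oligos in the same order, or 79.4, 26.5 and 106 per Mb beside 39.8, 32.6 and 46.6 for the chromosome. The block from KRTAP5-7 to KRTAP5-11 held 3, 3 and 4, or 53.9, 53.9 and 71.9 per Mb, also above the chromosome but resting on few regions. The highest keratin-named value of the GATA6-AS TFR1 list, 3.40 or 10.6-fold, was named after KRTAP5-6 and lies 11.9 kb from it. In the chromosome 17 block, regions of 2.19, 2.61 and 1.21 carried the name KRTAP9-9 without a mark, but RefSeq places that gene 7.73 kb, 24.9 kb and 9.23 kb away. A MEG3 TFR2 region of 3.15 lies 3.53 kb from KRTAP29-1.

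Names of pseudogenes and noncoding genes made up 95, 82 and 93 of the captured and 16, 11 and 44 of the control keratin regions. Their captured share was 85.6%, 88.2% and 67.9%, against 95.7%, 93.1% and 83.8% for regions with a protein-coding name. Many of these regions lie side by side in the clusters, so they are not independent, and the difference between the name classes was not tested. Over all listed regions, chromosomes 12 and 17 alone had captured shares of 89.3%, 88.3% and 78.1%, and the part of the chromosome in the difference was not tested. KRT18 pseudogenes gave 41, 32 and 35 captured and 6, 6 and 25 control regions, and KRT8 pseudogenes 30, 30 and 27 captured and 5, 3 and 11 control regions. Few of them lay over the pseudogene: 8, 1 and 1 of the captured regions named after KRT18 pseudogenes, and 1, 3 and 1 of those named after KRT8 pseudogenes.

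Several of the most extreme keratin-named values belong to pseudogene names. The highest of all was 4.01, or 16.1-fold, with MEG3 TFR1, 10.98 kb from KRT17P5 at chr17:18410851-18411200. Near KRT8P2 on chromosome 14, MEG3 TFR1 had a region of 3.37 and MEG3 TFR2 one of 3.04 that lies within its bounds. MEG3 TFR1 also had 3.30 at a distance of 71.9 kb from KRT8P37, and MEG3 TFR2 3.32 at 41.1 kb from KRT127P and 2.84 at 67.1 kb from KRT8P26. GATA6-AS TFR1 had 3.17 at 79.8 kb from KRT8P34 and 2.55 at 3.53 kb from KRT18P17, and a region of 2.53 over the antisense gene KRTAP5-AS1.

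The lowest control values carried pseudogene names with GATA6-AS TFR1 and MEG3 TFR2, and in part protein-coding names with MEG3 TFR1. With GATA6-AS TFR1 they were -3.56 near KRT18P39, -3.19 near KRT18P34 and -2.69 over KRT18P55. With MEG3 TFR2 they were -2.54 near KRT18P23, -2.04 near KRT19P4 and -2.00 near KRT8P20. With MEG3 TFR1 they were -1.87 near KRTAP29-1, -1.85 at KRT1 and -1.82 near KRT8P4. Some of the keratin pseudogenes, the KRT6 and KRT81 to KRT86 paralogs and the keratin-associated genes have near-identical copies. How reads were divided among such copies was not tested.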

How the data were processed

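DNA pulled down by each of 3 RNA oligos, and by none, was sequenced in 8 libraries, 2 per group. BWA 0.7.15-r1140, FastQC and build hg38 are named in the submitters' processing notes. For the region caller and the library scaling, names and settings were not given in the sources used here. In all, the authors deposited 6 lists with 1 log2 ratio per region. The log2 scale was read from the values, and regions are at least 150 bp wide.

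The keratin regions and the gene lists were chosen with earlier results of these data known. Lists were used as deposited, with coordinates printed from 1. Names were split and matched to a RefSeq table (GRCh38.p14), which gives gene ends without exons, so no region is called exonic or intronic. Overlap was at least 1 bp, and gene ends were widened by 1 kb. The genes named were, per oligo, the 5 with the highest captured and the 3 with the lowest control value, names over a gene in all 3 lists, and 18 well-known keratins where a list holds them. KRT6B, KRT6C, KRT12, KRT32, KRT79, KRT82, the genes of the promoter windows and the keratin-associated genes with a region were named after their values were seen. Intervals for shares are Wilson intervals at 95%. The counting was tested on simulated lists with regions planted at part of the 100 genes, and 100% of the planted genes were recovered. No test between groups was made, since the lists hold no value per library. The 56 keratin-named regions of chromosome 21 were not analysed here. Python 3.11.15, numpy 2.4.6, pandas 2.3.3, scipy 1.17.1 and matplotlib 3.10.9 were used. Alternatives were the stronger 50% of each list, joining regions within 200 bp, edges of 5 kb, membership by position within 5 kb, chromosomes 12 and 17 alone, and protein-coding names alone.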

Additional observations from a re-analysis of the deposited data

How the results depend on the processing

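Of 60 alternative values, 27 stayed close to those reported and 33 moved. Values are in the order MEG3 TFR1, MEG3 TFR2, GATA6-AS TFR1. Captured keratin regions numbered 102, 105 and 135 on chromosomes 12 and 17 alone, and 105, 97 and 124 by position within 5 kb. They numbered 90, 94 and 114 with protein-coding names alone, and 89, 91 and 113 among the stronger 50% of each list. With names over the gene alone, an alternative chosen after seeing the data, they numbered 35, 33 and 50. The captured share for MEG3 TFR1 became 94.4% on chromosomes 12 and 17, 95.5% by position, 95.7% with protein-coding names, 93.7% among the stronger 50% and 85.4% with names over the gene. For MEG3 TFR2 it became 82.5% with names over the gene. For GATA6-AS TFR1 with names over the gene it became 70.4%. With names over the gene, the share of each oligo thus fell below that of all regions over a gene (86.8%, 86.3% and 75.9%). The captured share for GATA6-AS TFR1 became 83.3%, 85.5% and 83.8% on chromosomes 12 and 17, by position and with protein-coding names. Keratin genes with a captured end numbered 51, 46 and 50 with edges of 5 kb (59.9%, 54.2% and 69.1% of all protein-coding genes), and 13, 13 and 14 among the stronger 50% (16.4%, 12.4% and 32.5%). The median log2 ratio among the stronger 50% was 1.77, 1.78 and 1.70, beside 1.76, 1.76 and 1.65 over all captured regions. These counts follow from which regions each rule keeps; the cause of the moved shares was not tested. Joining regions within 200 bp left the counts at 184, 173 and 201. No fit without a library was run, and no paired analysis was possible because the lists carry no value per library. Depth and the error of a ratio are unknown, so no single region's value can be set against replicate spread.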
